A study of Mus musculus with 22 samples.

Results

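Messenger RNA of 9 chemokine receptors, Ccr1, Ccr2, Ccr6, Cx3cr1, Cxcr2, Cxcr3, Cxcr4, Cxcr6 and the atypical receptor Ackr3, was followed through cells sorted from the stroma of mammary tumors. The receptors were chosen by symbol, each matched to 1 Ensembl gene, and make up 9 of the 41388 genes counted. All 9 passed the filter on low counts. RNA-seq counts were deposited for 22 libraries from C57BL/6 mice of postnatal day 56. The tumor is given as orthotopic MMTV-BO1 in the sample labels and as subcutaneous in the series' design text. All mice carried Osx-cre, a doxycycline-repressible Cre driven by the promoter of Osterix, a transcription factor of bone-forming cells, and the Ai9 reporter, which turns on the red protein TdTomato (TdT) once Cre has acted and keeps it on in daughter cells. The wild type group was Osx-cre;Ai9, and the Cdh2-cKO group is labelled as also carrying a conditional deletion of Cdh2, the gene of N-cadherin, designed to act in cells with active Cre. A total of 4 wild type and 6 Cdh2-cKO mice were inoculated, and all libraries are labelled as taken 2 weeks after inoculation. GFP+ tumor cells were removed and the remaining cells were sorted by TdT and by the leukocyte antigen CD45 into TdT single positive (TdT+;CD45-), double positive (TdT+;CD45+), CD45 single positive (TdT-;CD45+) and double negative cells. Each genotype had 2 TdT single positive libraries and 3 libraries of every other population, which gives 12 CD45+ and 10 CD45- libraries.

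The libraries held between 16594228 and 26784003 counts. The labels do not tie libraries to mice, so libraries of different populations may come from the same animal, and p-values measure the spread between these libraries. Levels are given as normalized CPM (counts scaled to library size with TMM factors), on which 3 counts correspond to between 0.103 and 0.201 in the individual libraries. Cdh2 itself was not lower in the libraries labelled Cdh2-cKO. It stood between 5.19 and 9.13 normalized CPM in wild type TdT single positive cells and between 13.1 and 17.2 in those labelled Cdh2-cKO (log2 fold change 1.08, SE 0.84, adjusted p = 0.668, edgeR quasi-likelihood test). A count over the whole gene does not show which exons were read, so Cdh2 did not check the genotype labels, and the genotype is given below as labelled. Leukocyte transcripts were present in all 10 CD45- libraries. Over 8 pan-leukocyte genes, among them Ptprc, which encodes CD45, the median gene stood at 0.494% to 51.9% of its median in the CD45+ libraries, and the highest value was that of wild type double negative replicate 3. Wild type CD45 single positive replicate 2 stood apart among CD45+ libraries. Its 12 monocyte and macrophage genes summed to 8595 normalized CPM against 31600 to 56710 in the other 11, and its 9 T cell genes to 2858 against 9.23 to 526. Values that rest on either library are given below with and without it, or with their range over each library left out in turn.

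Chemokine receptors are seven-pass membrane proteins of leukocytes and some stromal cells. Most couple to inhibitory G proteins and direct migration along gradients of chemokines, while atypical receptors bind chemokines without activating G proteins and remove them from the surroundings. Ccr2, the receptor of CCL2, is known for the release of monocytes from bone marrow. Ccr1 binds CCL3, CCL5 and related chemokines on myeloid cells, and Cx3cr1 binds fractalkine on monocytes and macrophages. Cxcr4 and Ackr3 share the ligand CXCL12, and Ackr3 scavenges it. Cxcr2 guides neutrophils, Cxcr3 and Cxcr6 are known from effector T cells and NK cells, and Ccr6 from B cells and type 17 lymphocytes.

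The receptors lie on 4 chromosomes of the mouse (GRCm38). On chromosome 9 lie Cx3cr1 (119901616 to 120068283, minus strand), Cxcr6 (123806477 to 123811754, plus strand), Ccr1 (123962126 to 123968692, minus strand) and Ccr2 (124101950 to 124113557, plus strand). On chromosome 1 lie Cxcr2 (74153989 to 74161246, plus strand), Ackr3 (90203980 to 90216751, plus strand) and Cxcr4 (128588199 to 128592293, minus strand). Ccr6 lies on chromosome 17 (8236043 to 8257127, plus strand) and Cxcr3 on chromosome X (101731535 to 101734269, minus strand). Cxcr6 lies within the span of Fyco1 on the opposite strand, with 0 shared exon bases. The span given for Cx3cr1 overlaps Gorasp1, Csrnp1 and Xirp1 on the same strand and Wdr48 and Ttc21a on the opposite strand. With each of them Cx3cr1 also has 0 shared exon bases. Ccr1 has a close relative, Ccr1l1, so that reads from stretches both copies share would have been left out by the counting of uniquely aligned reads. RefSeq promoter windows (GRCm38.p6) were available for all 9 receptors. The 250 bases before the start of 4 of them are shown, for Ccr1 and Cx3cr1, which moved together across the CD45- libraries, and for Cxcr4 and Ackr3, which share a ligand and changed in opposite directions between CD45+ and CD45- cells. Ccr2 moved with Ccr1 and Cx3cr1 too, but its window (124101933 to 124102182) reaches into the gene span given above and is not shown. The Cx3cr1 window lies outside the span given above, but inside that of another annotation, which ends at 120069879. Capitals mark 3 motifs, namely TATAAA, the core promoter element named for these letters, GGGCGG, which SP family factors are known to bind, and GAGGAA, a longer form of the GGAA core of ETS family sites. GGAA alone was not searched, and it also occurs in windows without GAGGAA, such as those of Cx3cr1 and Ackr3. Each was searched on both strands, and where 2 overlap the run of capitals is longer.
Ccr1, chr9:123968693-123968942, minus strand: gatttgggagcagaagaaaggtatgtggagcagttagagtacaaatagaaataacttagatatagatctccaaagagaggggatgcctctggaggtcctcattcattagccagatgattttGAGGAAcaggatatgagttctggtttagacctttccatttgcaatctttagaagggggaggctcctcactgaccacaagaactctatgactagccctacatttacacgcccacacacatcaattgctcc
Cx3cr1, chr9:120068297-120068546, minus strand: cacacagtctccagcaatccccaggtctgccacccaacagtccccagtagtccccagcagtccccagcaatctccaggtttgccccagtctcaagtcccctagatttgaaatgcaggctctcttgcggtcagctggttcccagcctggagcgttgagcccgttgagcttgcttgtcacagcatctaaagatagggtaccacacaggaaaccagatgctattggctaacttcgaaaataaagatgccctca
Cxcr4, chr1:128592300-128592549, minus strand: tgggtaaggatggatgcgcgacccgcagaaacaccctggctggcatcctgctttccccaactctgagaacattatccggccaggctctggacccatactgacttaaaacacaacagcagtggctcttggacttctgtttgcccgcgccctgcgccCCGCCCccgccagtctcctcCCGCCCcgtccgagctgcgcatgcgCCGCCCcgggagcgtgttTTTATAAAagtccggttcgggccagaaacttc
Ackr3, chr1:90203730-90203979, plus strand: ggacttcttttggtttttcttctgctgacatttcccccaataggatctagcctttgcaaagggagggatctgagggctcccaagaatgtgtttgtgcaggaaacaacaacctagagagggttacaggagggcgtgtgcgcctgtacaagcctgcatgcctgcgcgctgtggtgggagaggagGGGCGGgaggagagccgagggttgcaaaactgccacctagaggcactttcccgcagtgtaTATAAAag
TATAAA occurred in 12.4%, GGGCGG in 32.7% and GAGGAA in 23.3% of the 32851 windows of this length. The Cxcr4 window held TATAAA on both strands in 1 overlapping stretch and 3 copies of GGGCGG. The Ackr3 window held 1 of each. Neither motif was found in the windows of the other 7 receptors. GAGGAA was found once in the windows of Ccr1, Cxcr2 and Cxcr3, in 1 of the 2 windows of Ccr6, and not in those of Cxcr4, Ackr3, Ccr2, Cx3cr1 and Cxcr6. These matches are a description of the letters and not evidence of a factor's binding.

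Whether a receptor belongs to the CD45+ or the CD45- side of the sort was asked by comparing these populations over both genotypes. CD45+ cells carried more Ccr1, Ccr2, Ccr6, Cx3cr1, Cxcr2, Cxcr3 and Cxcr4, and CD45- cells carried more Ackr3. Cxcr6 was not called. Thus 8 of 9 receptors were called at an adjusted p of at most 0.05 (7 higher in CD45+ cells and 1 lower), beside 63.7% of all 15018 genes tested (32.6% higher and 31.1% lower). The median log2 fold change was 3.42 over the 9 receptors and 0.06 over all genes. With every CD45+ library above every CD45- library there were 0 receptors (3.71% of all genes). With every CD45+ library below every CD45- library there was 1, Ackr3 (11.0% of all genes). In bulk RNA, fewer cells of a type and less RNA per cell cannot be told apart.

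**Figure D1:**
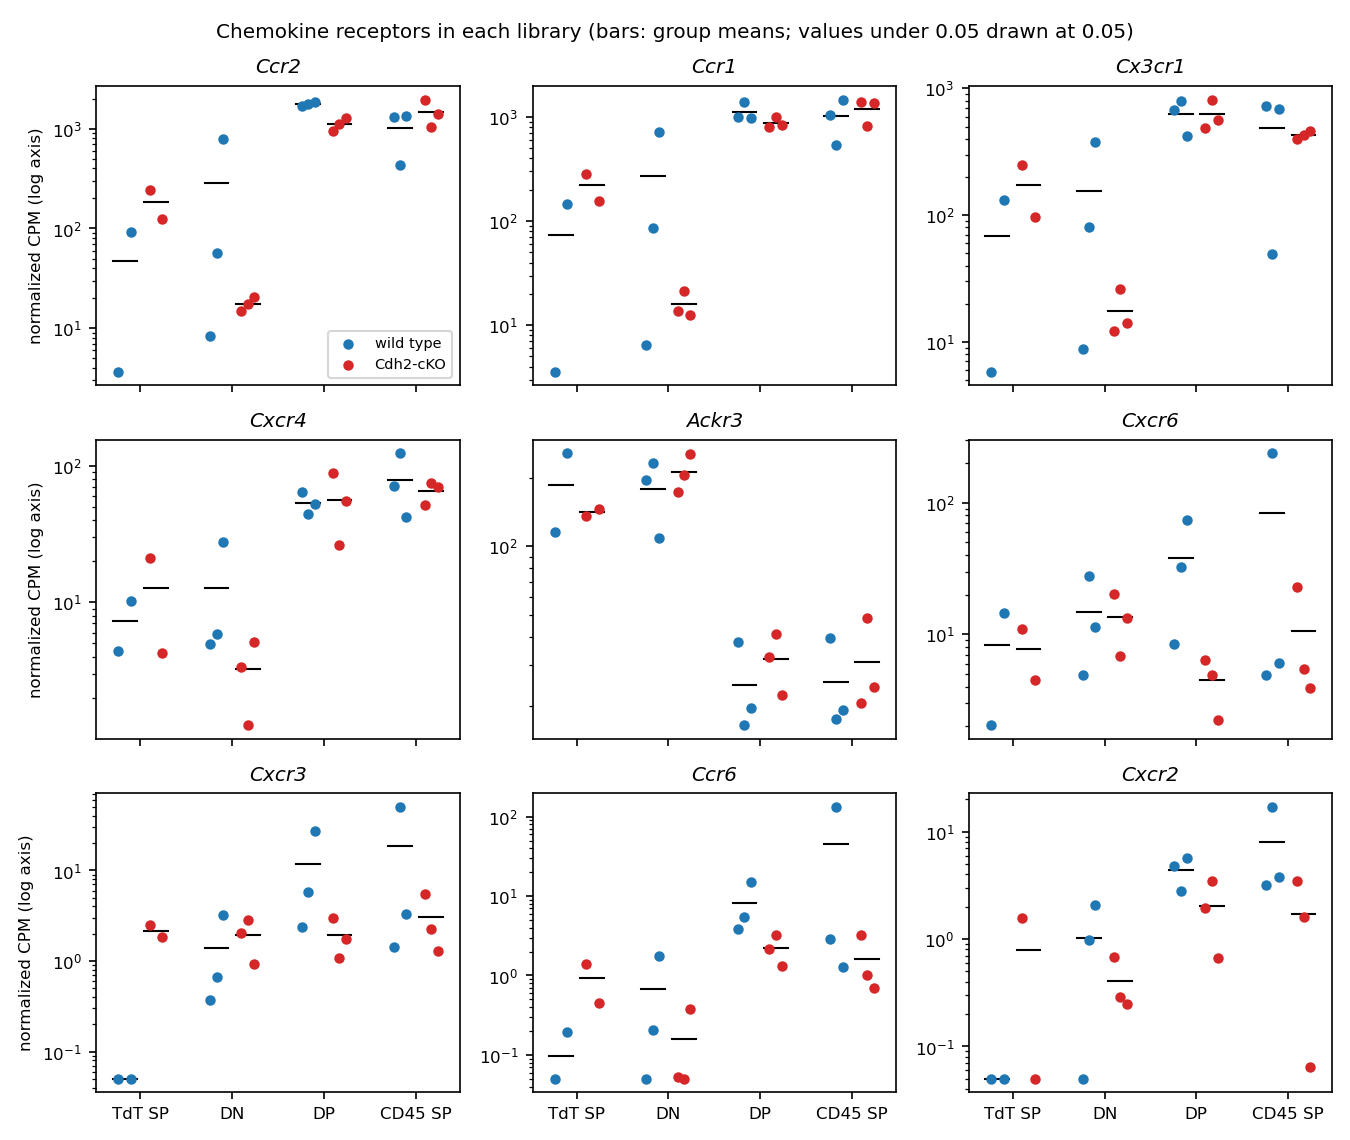
Normalized CPM (log axis) of the 9 receptors in each of the 22 libraries, by population (TdT SP, TdT single positive; DN, double negative; DP, double positive; CD45 SP, CD45 single positive) and genotype as labelled; points are libraries and bars are group means, and values under 0.05 are drawn at 0.05. Ackr3 separates CD45- libraries (108 to 257) from CD45+ libraries (16.4 to 48.2), while Ccr6, Cxcr2, Cxcr3, Cxcr4 and Cxcr6 have their highest point in wild type CD45 single positive replicate 2.

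Ccr1, Ccr2 and Cx3cr1, the receptors known from monocytes and macrophages, were the most abundant of the 9 in CD45+ cells. Per kilobase of transcript, the median RPKM over 12 CD45+ libraries was 353 for Ccr1, 207 for Ccr2, 141 for Cx3cr1, 32.9 for Cxcr4, 6.93 for Ackr3, 3.30 for Cxcr6, 1.55 for Cxcr3, 1.497 for Ccr6 and 1.09 for Cxcr2. In that order only the libraries of Cxcr4 (14.6 to 68.3 RPKM) and Ackr3 (4.89 to 14.4 RPKM) did not overlap as neighbours. The order in both CD45+ populations placed the same 4 receptors first. Of the other 15 chemokine receptors listed, Ccrl2 had the highest median RPKM in each of the 4 populations, and in CD45+ cells, at 168, it stood between Ccr2 and Cx3cr1.

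Ccr2 ranged from 432 through a median of 1324 to 1955 normalized CPM in the 12 CD45+ libraries. In the 10 CD45- libraries it ranged from 3.67 to 788, with a median at 2.90% of the CD45+ median. Only wild type double negative replicate 3 reached the range of the CD45+ libraries. The difference was 4.01 on the log2 scale (SE 0.66, adjusted p = 4.84e-05, edgeR quasi-likelihood test). Ccr1 ranged from 543 through 999 to 1472 normalized CPM in CD45+ libraries. In CD45- libraries Ccr1 ranged from 3.57 through 53.5 to 718, and again only that replicate overlapped (log2 fold change 3.52, SE 0.65, adjusted p = 0.000146). Cx3cr1 ranged from 49.2 through 526 to 816 normalized CPM in CD45+ libraries. Its lowest value was that of wild type CD45 single positive replicate 2, the library low in macrophage genes, and the other 11 lay at 398 or higher. In CD45- libraries Cx3cr1 ranged from 5.82 to 379 (log2 fold change 2.83, SE 0.61, adjusted p = 0.000624). Ccr1, Ccr2 and Cx3cr1 were called with any 1 of the 22 libraries left out. Their log2 fold changes then ranged from 3.28 to 4.61, from 3.78 to 4.94 and from 2.59 to 3.72. Ccr1 and Cx3cr1 were not called in the wild type libraries alone (adjusted p = 0.070 and 0.102, where 38.4% of genes were called).

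In the CD45- libraries these 3 receptors followed the leukocyte transcripts. Expressed as a percentage of the CD45+ median, Ccr1 stood at 0.358 and 14.5 in wild type TdT single positive replicates 1 and 2, where the pan-leukocyte genes stood at 0.494 and 13.9. In wild type double negative replicates 1 to 3 Ccr1 stood at 0.640, 8.58 and 71.9, with pan-leukocyte genes at 0.761, 7.84 and 51.9. In the libraries labelled Cdh2-cKO, Ccr1 stood at 28.6 and 15.5 in TdT single positive cells, with pan-leukocyte genes at 30.8 and 15.7. The double negative libraries labelled Cdh2-cKO were low for both, with Ccr1 at 1.39, 2.12 and 1.26 and pan-leukocyte genes at 1.71, 2.47 and 2.03. Over the 10 CD45- libraries, which mix 2 populations and 2 genotypes, Pearson's r with the pan-leukocyte genes was 0.997 for Ccr1 (Spearman's rho 0.988, and r 0.995 without the 2 libraries farthest from the median). It was 0.988 for Ccr2 (rho 0.988, and 0.993 without 2) and 0.991 for Cx3cr1 (rho 0.988, and 0.985 without 2). Ccr6, at 0 to 1.76 normalized CPM in these libraries, also followed them (r = 0.881, rho 0.891, and 0.782 without 2). Cxcr2 had r = 0.554 (rho 0.583, and 0.241 without 2) and Cxcr3 0.422 (rho 0.553, and -0.014 without 2). The percentages of Ccr1, Ccr2 and Cx3cr1 were not equal to those of the pan-leukocyte genes. Cx3cr1 stood above the pan-leukocyte genes in 10 of 10 libraries, with a range of 1.11% to 71.9%. Ccr2 stood below them in 9 of 10, with a range of 0.278% to 59.6%, and Ccr1 in 7 of 10. Whether leukocytes within the CD45- gate account for these receptors was not tested.

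**Figure D2:**
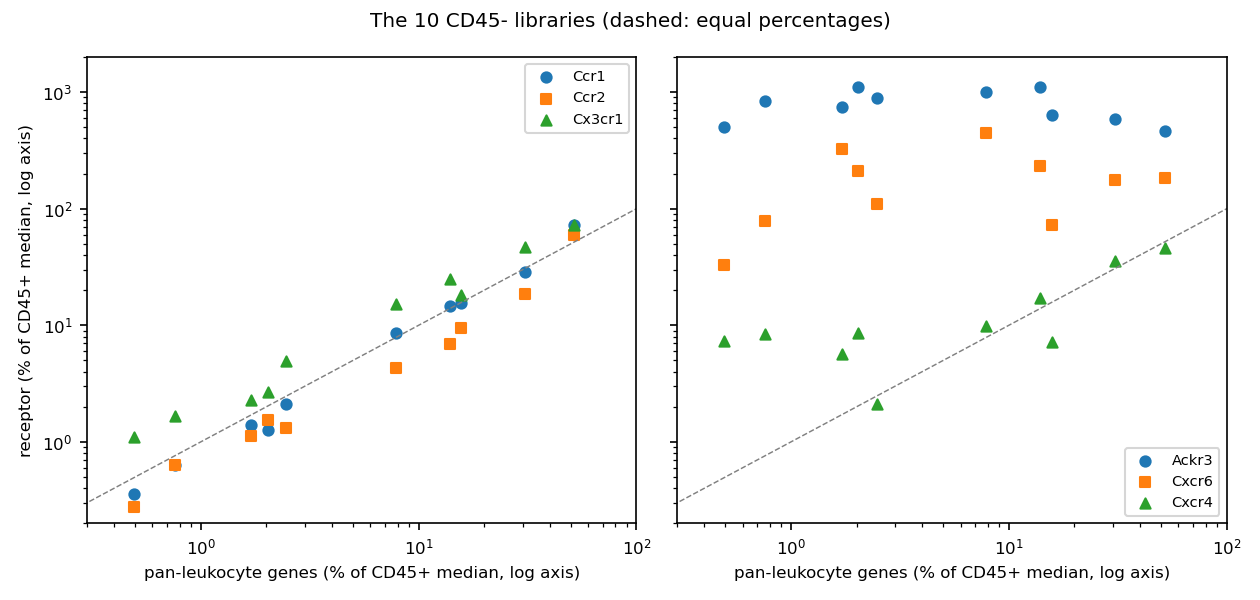
Receptor level in each of the 10 CD45- libraries against the pan-leukocyte genes (median over 8 genes), as a percentage of the median in the 12 CD45+ libraries (both axes log); the dashed line marks equal percentages. Ccr1 lies near the line on both sides, Cx3cr1 above it in 10 of 10 libraries and Ccr2 below it in 9 of 10, whereas Ackr3 stays between 467% and 1106% and Cxcr6 between 32.7% and 447% at every leukocyte level.

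Cxcr4 and Ackr3, the receptors of CXCL12, fell on opposite sides of the sort. Cxcr4 ranged from 26.4 through 59.4 to 123 normalized CPM in CD45+ libraries and from 1.26 to 27.4 in CD45- libraries. Its highest value was that of wild type CD45 single positive replicate 2. The ranges touched through a single CD45- library, wild type double negative replicate 3, which lay above double positive replicate 2 labelled Cdh2-cKO. The log2 fold change of Cxcr4 was 2.99 (SE 0.41, adjusted p = 6.57e-06), and 2.81 to 3.39 with 1 library left out. Cxcr4 was called under all alternatives run. Across the CD45- libraries Cxcr4 followed the pan-leukocyte genes less closely than Ccr1 in value (r = 0.703, rho 0.600, and r 0.628 without the 2 farthest), a difference that was not tested.

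Ackr3 was the one receptor of the 9 called higher in CD45- cells, which held tumor epithelial as well as stromal transcripts. In wild type libraries it stood at 116 and 257 normalized CPM in TdT single positive cells and at 196, 233 and 108 in double negative cells. In libraries labelled Cdh2-cKO it stood at 136 and 146 in TdT single positive cells and at 173, 206 and 256 in double negative cells. Every CD45+ library lay lower, with 38.1, 16.4 and 19.4 in wild type double positive cells and 39.6, 17.5 and 19.0 in wild type CD45 single positive cells. The CD45+ libraries labelled Cdh2-cKO were alike in range, with 32.6, 41.1 and 22.3 in double positive and 20.6, 48.2 and 24.2 in CD45 single positive cells. Ackr3 fell by 2.66 on the log2 scale in CD45+ cells (SE 0.23, adjusted p = 3.87e-08). The fall was 2.87 in the wild type libraries alone and 2.52 in those labelled Cdh2-cKO, and was called under all alternatives run. Per kilobase, Ackr3 had the highest median of the 9 receptors in double negative cells, at 60.0 RPKM, and the second highest, at 42.2, in TdT single positive cells. Between these 2 populations the Ackr3 libraries overlapped.

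Cxcl12, the ligand of both receptors, had the smallest adjusted p of the 18 listed ligands. Its level was 0.178 to 3.55 normalized CPM in CD45+ libraries and 25.6 to 377 in CD45- libraries (log2 fold change -5.92, SE 0.48, adjusted p = 1.48e-08). Cxcl12 and Ackr3 were therefore higher in CD45- cells and Cxcr4 in CD45+ cells. The 3 genes most like Ackr3 across the 10 CD45- libraries were Plekhg5 (r = 0.910, rho 0.939), Megf10 (r = 0.909, rho 0.903) and Hspb8 (r = 0.903, rho 0.939). Without the 2 libraries farthest from the median of Ackr3 the r values were 0.854, 0.785 and 0.886. These genes had the highest r of all genes tested, over only 10 libraries. How high such a pick would reach without any link was not tested.

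**Figure D3:**
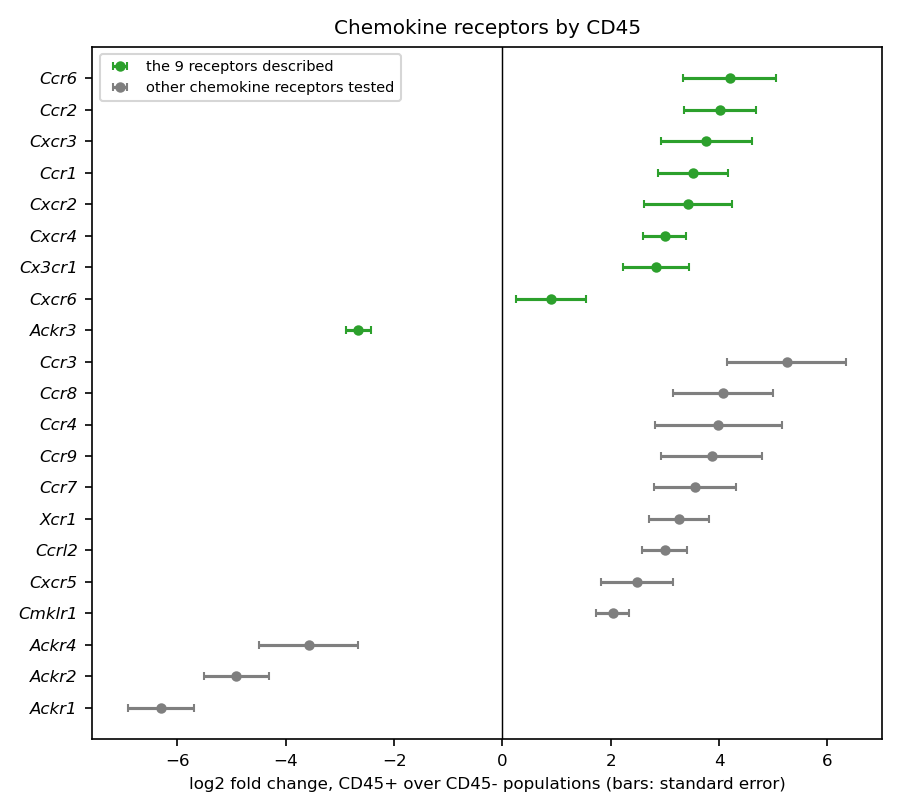
Log2 fold change of CD45+ over CD45- populations with its standard error for the 9 receptors (green) and the 12 other chemokine receptors tested (grey). Among the 9, Ackr3 lies below 0 at -2.66 and Cxcr6 nearest to 0 at 0.89; among the others Ackr1, Ackr2 and Ackr4 lie below 0.

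Cxcr3, Ccr6, Cxcr2 and Cxcr6 had a lower median RPKM in CD45+ cells than the other 5 receptors. Each of them, like Cxcr4, had its highest value in wild type CD45 single positive replicate 2. Cxcr3, the receptor of CXCL9 and CXCL10, stood at 2.38, 5.73 and 27.2 normalized CPM in wild type double positive libraries and at 1.44, 50.5 and 3.34 in wild type CD45 single positive libraries. The CD45+ libraries labelled Cdh2-cKO held 2.98, 1.07 and 1.74 in double positive and 5.55, 2.27 and 1.28 in CD45 single positive cells. The CD45- libraries held between 0 and 3.19, with 0 counts in both wild type TdT single positive libraries. The highest values were those of wild type CD45 single positive replicate 2 and double positive replicate 3. The other 10 CD45+ libraries held 1.07 to 5.73, and 5 of the 10 CD45- libraries lay in that range. Cxcr3 was called over all libraries (log2 fold change 3.76, SE 0.84, adjusted p = 0.000927) and without wild type CD45 single positive replicate 2 (3.03, adjusted p = 0.000935), but not by limma with quality weights (log2 fold change 2.72, adjusted p = 0.065, where 66.1% of genes were called) and not in the libraries labelled Cdh2-cKO alone (0.19, SE 0.45, adjusted p = 0.737, where 58.3% were called). The fitted fold rests in part on the group with 0 counts and is no bound.

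Ccr6, the receptor of CCL20, stood at 3.86, 5.50 and 14.9 normalized CPM in wild type double positive libraries and at 2.89, 133 and 1.29 in wild type CD45 single positive libraries. Libraries labelled Cdh2-cKO held 2.15, 3.25 and 1.32 in double positive and 3.19, 1.003 and 0.705 in CD45 single positive cells. CD45- libraries ranged from 0 to 1.76. Ccr6 was higher in CD45+ cells (log2 fold change 4.20, SE 0.85, adjusted p = 0.000369) and by 3.09 without wild type CD45 single positive replicate 2 (adjusted p = 0.000288), and it was called in each genotype alone. Cxcr2, the neutrophil receptor, had the lowest median RPKM in CD45+ libraries. It ranged over 0.064 to 17.1 normalized CPM in CD45+ libraries and 0 to 2.09 in CD45- libraries (log2 fold change 3.42, SE 0.81, adjusted p = 0.00131). Its highest value was again that of wild type CD45 single positive replicate 2, in which the 8 neutrophil genes summed to 875 normalized CPM against 72.1 to 129 in the other CD45+ libraries. Without that library the log2 fold change was 3.13 (adjusted p = 0.00215). Cxcr2 was not called in the libraries labelled Cdh2-cKO alone (adjusted p = 0.142).

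Cxcr6, the receptor of CXCL16, was the member that CD45 did not separate. Wild type libraries held 8.44, 32.4 and 73.8 normalized CPM in double positive and 4.93, 238 and 6.09 in CD45 single positive cells. Libraries labelled Cdh2-cKO held 6.40, 4.90 and 2.23 in double positive and 22.7, 5.42 and 3.91 in CD45 single positive cells. The CD45- libraries were of like size, at 2.04 and 14.6 in wild type TdT single positive cells, 4.92, 27.9 and 11.5 in wild type double negative cells, 11.0 and 4.51 in TdT single positive cells labelled Cdh2-cKO and 20.2, 6.88 and 13.2 in double negative cells labelled Cdh2-cKO. The median of the CD45- libraries was 180% of the CD45+ median. Per kilobase, Cxcr6 had a median of 6.52 RPKM in double negative cells, between Ackr3 (60.0 RPKM) and Ccr1 (6.18 RPKM), and its libraries overlapped those of Ccr1. The log2 fold change was 0.89 (SE 0.64, adjusted p = 0.235), and it turned to -0.08 (adjusted p = 0.889) without wild type CD45 single positive replicate 2. Cxcr6 did not follow the pan-leukocyte genes across CD45- libraries in the way Ccr1 did (r = 0.417, rho 0.200, and r 0.120 without the 2 farthest), and the difference between these correlations was not tested. Its ligand Cxcl16 was higher in CD45+ cells, at 102 to 424 normalized CPM against 6.21 to 196 (log2 fold change 3.10, SE 0.41, adjusted p = 5.13e-06).

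Across the 12 CD45+ libraries the lymphoid receptors rose and fell together. Pearson's r of log2 CPM was 0.954 between Cxcr3 and Cxcr6, 0.913 between Ccr6 and Cxcr6 and 0.868 between Ccr6 and Cxcr3. Without wild type CD45 single positive replicate 2 these were 0.912, 0.834 and 0.733. That library had the highest sums of the T cell, NK cell (858 normalized CPM against 6.13 to 83.7 in the others) and B cell genes (3474 against 8.56 to 21.7). Wild type double positive replicate 3 had the next highest sums of all 3 lists and the next highest Ccr6, Cxcr3 and Cxcr6. The share of these values that lymphocytes account for was not tested. The genes most like Cxcr3 were Cst7, Cd8b1 and Fasl (r = 0.973, 0.963 and 0.962; 0.870, 0.900 and 0.899 without the 2 farthest libraries), of which Cd8b1 is a chain of the CD8 co-receptor and Fasl a death ligand of cytotoxic cells. For Cxcr6 they were Gimap4, Trat1 and Ctsw (r = 0.991, 0.990 and 0.984; 0.976, 0.967 and 0.941 without 2), all known from lymphocytes. For Ccr6 they were Ppp1r16b, Dapp1 and Car2 (r = 0.989, 0.983 and 0.981; 0.932, 0.905 and 0.906 without 2). Spearman's rho of these 9 genes lay between 0.874 and 0.979.

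The genes most like the monocyte receptors were of other kinds. Ccr1 was most like Mad2l1, Rfc4 and Psma1 (r = 0.978, 0.973 and 0.964; rho 0.930, 0.930 and 0.874; 0.951, 0.953 and 0.944 without 2 libraries), of which Mad2l1 acts in the spindle checkpoint, Rfc4 in DNA replication and Psma1 in the proteasome. Ccr2 was most like Macrod2, Hpf1 and Gins4 (r = 0.980, 0.956 and 0.950; rho 0.944, 0.804 and 0.853; 0.976, 0.837 and 0.785 without 2). Cx3cr1 was most like Abcc3, Gpr160 and Tor1a (r = 0.976, 0.974 and 0.973; rho 0.825, 0.937 and 0.776; 0.749, 0.958 and 0.771 without 2). Between receptors, Ccr2 had r = 0.798 with Ccr1 and 0.764 with Cx3cr1 over 12 libraries. Without wild type CD45 single positive replicate 2 these were 0.592 and -0.08, so that the second rested on that library. Ccr1 and Cx3cr1 had r = 0.669 with that library and 0.178 without it. Without it Ccr2 also had r = 0.708 with Cxcr6, 0.595 with Cxcr3 and 0.574 with Ccr6, against -0.293, -0.328 and -0.497 with it. Cxcr2 and Ccr6 had 0.776 with it and 0.717 without it. The correlations without that library thus did not part the monocyte from the lymphoid receptors. Cxcr4 was most like Rnf19a, Bcar3 and Btbd7 (r = 0.927, 0.916 and 0.910; rho 0.909, 0.930 and 0.727; 0.830, 0.866 and 0.666 without 2), and Cxcr2 most like Nprl2, Rrad and Mob3a (r = 0.946, 0.934 and 0.931; rho 0.860, 0.853 and 0.825; 0.765, 0.704 and 0.774 without 2).

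Whether TdT marks a difference in these receptors within CD45+ cells was asked by comparing double positive with CD45 single positive cells. None of the 9 receptors was called, and neither was any other gene but 1 (0.00666% of those tested), with 609 genes at an unadjusted p under 0.05, of which 0 were receptors. DESeq2 called 6 genes and limma with quality weights no receptor either. The largest differences in size were those of Cxcr6 (log2 fold change -1.18, SE 0.85) and Ccr6 (-1.03, SE 0.91), both with an adjusted p of 0.9999. Without wild type CD45 single positive replicate 2 they became 0.77 and 1.203, and Cxcr3 went from -0.65 (SE 0.79) to 0.82. Ccr1 (-0.15, SE 0.74), Ccr2 (0.20, SE 0.73), Cx3cr1 (0.45, SE 0.73), Cxcr4 (-0.38, SE 0.48), Cxcr2 (-0.31, SE 0.86) and Ackr3 (0.0018, SE 0.30) lay within 1 SE of 0. Double positive and CD45 single positive libraries overlapped for each receptor.

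**Figure D4:**
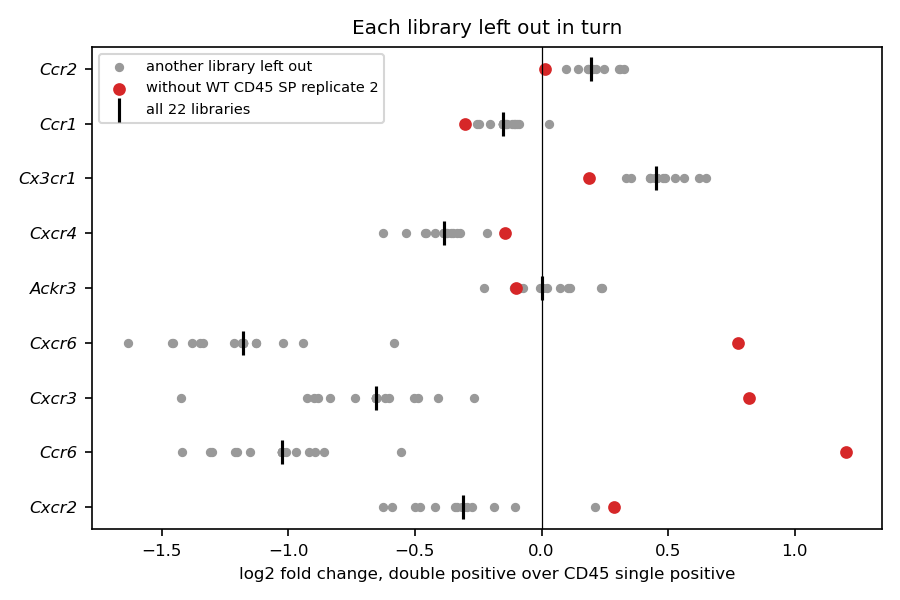
Log2 fold change of double positive over CD45 single positive cells for each receptor with all 22 libraries (black bars) and with each library left out in turn (points; red, wild type CD45 single positive replicate 2). Without that library Ccr6, Cxcr3 and Cxcr6 move from -1.03, -0.65 and -1.18 to 1.203, 0.82 and 0.77, and Cxcr2 from -0.31 to 0.29.

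Within CD45- cells, TdT single positive cells were compared with double negative cells. No receptor was called, while 284 genes were (1.89%, of which 1.23% of all genes tested higher and 0.659% lower in TdT single positive cells). Over both genotypes the log2 fold changes of Ccr1, Ccr2 and Cx3cr1 were 0.97, 0.41 and 1.06, and without wild type double negative replicate 3 they were 2.25, 1.98 and 1.96 (adjusted p = 0.078, 0.079 and 0.144, where 5.85% of genes were called). In the libraries labelled Cdh2-cKO alone, 3 receptors were called, all higher in TdT single positive cells, where 8.10% of genes were called (7.72% higher). Ccr1 stood at 286 and 155 normalized CPM in those TdT single positive libraries against 13.8, 21.2 and 12.6 in double negative libraries (log2 fold change 3.79, SE 0.34, adjusted p = 3.50e-05). For Ccr2 the values were 245 and 125 against 14.8, 17.3 and 20.4 (log2 fold change 3.39, SE 0.33, adjusted p = 5.48e-05). For Cx3cr1 they were 247 and 96.7 against 12.1, 26.1 and 14.1 (log2 fold change 3.30, SE 0.41, adjusted p = 0.000246). The pan-leukocyte genes moved alike, at 30.8% and 15.7% of the CD45+ median against 1.71% to 2.47%. In wild type libraries alone the 3 log2 fold changes were -1.86, -2.58 and -1.19 and none was called, with Ccr1 at 3.57 and 145 normalized CPM in TdT single positive and 6.39, 85.7 and 718 in double negative cells. The difference between the genotypes in this contrast was not tested. Cxcr3 was called lower by DESeq2 (log2 fold change -3.63, adjusted p = 0.024, where 6.54% of genes were called), while edgeR gave -3.81 (SE 1.54, adjusted p = 0.191) without a call.

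Between genotypes no receptor was called in any of the 4 populations or in the genotype difference of the CD45 and of the TdT contrast in CD45+ cells. The share of genes called was 0.00666% in TdT single positive cells and 0% in the others, with 1576, 515, 1474 and 1441 genes at an unadjusted p under 0.05 in TdT single positive, double positive, CD45 single positive and double negative cells, and with 1157 and 655 in the 2 genotype differences. In double negative cells Ccr1 had a log2 fold change of -4.09 (SE 1.19, adjusted p = 0.180) and Ccr2 of -4.02 (SE 1.17, adjusted p = 0.180). Wild type values spread from 6.39 to 718 normalized CPM for Ccr1 and from 8.46 to 788 for Ccr2, so that the values labelled Cdh2-cKO (12.6 to 21.2, and 14.8 to 20.4) lay within the wild type range. DESeq2 called both and Cx3cr1 there (adjusted p = 0.00491, 0.00505 and 0.037), where it called 3.48% of genes, and edgeR called Ccr1 and Ccr2 without wild type double negative replicate 1 (adjusted p = 0.016 and 0.017), where it called 4.04%. Without wild type double negative replicate 3, the library with the highest values, the log2 fold changes were -1.52 for Ccr1 (SE 0.95), -0.87 for Ccr2 (SE 0.84) and -1.34 for Cx3cr1 (SE 1.02), and none was called. Wild type double negative libraries also held the pan-leukocyte genes at 0.761% to 51.9% of the CD45+ median against 1.71% to 2.47% in those labelled Cdh2-cKO.

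In CD45 single positive cells the lowest unadjusted p was that of Ccr6 (log2 fold change -4.79, SE 1.45, adjusted p = 0.417), followed by Cxcr6 (-2.95, SE 1.26, adjusted p = 0.473) and Cxcr3 (-2.60, SE 1.17, adjusted p = 0.499). All 3 values rested on wild type replicate 2. Without it they were -0.34 for Ccr6 (SE 1.07), 0.96 for Cxcr6 (SE 0.99) and 0.35 for Cxcr3 (SE 0.99), so that the latter 2 turned. In double positive cells Cxcr6 (-3.08, SE 1.28) and Cxcr3 (-2.61, SE 1.18) were likewise not called, both with an adjusted p of 1.0, and without wild type double positive replicate 3 they were -2.17 and -1.07. All 3 wild type double positive libraries lay above all 3 labelled Cdh2-cKO for 3 receptors (6.05% of all genes), namely Cxcr6 (8.44 to 73.8 against 2.23 to 6.40 normalized CPM), Ccr6 (3.86 to 14.9 against 1.32 to 3.25) and Ccr2 (1681 to 1835 against 958 to 1283). For 0 receptors did they lie below (6.76%). In TdT single positive cells both wild type libraries lay below both labelled Cdh2-cKO for 4 receptors, Ccr1, Ccr2, Ccr6 and Cxcr3 (21.4% of all genes), and above for 0 (20.7%), and in the other 2 populations no receptor separated the genotypes (5.90% of genes lay above and 4.16% below in CD45 single positive cells, and 5.35% and 3.87% in double negative cells). In TdT single positive cells Cxcr3 had 0 counts in both wild type libraries and 2.50 and 1.82 normalized CPM in those labelled Cdh2-cKO. DESeq2 called that difference (adjusted p = 0.010, where 0.892% of genes were called) and the genotype difference of the CD45 contrast for Cxcr3 (adjusted p = 0.00122, where 0.200% were called), and edgeR called neither (adjusted p = 0.327 and 0.507). Ackr3 differed by less than 1 SE between the genotypes in all 4 populations, with log2 fold changes from -0.40 to 0.38.

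Other genes of the system are given by their counts in the CD45 contrast. Of 15 other chemokine receptors listed, 12 were tested, 9 were higher in CD45+ cells and 3 lower, beside 32.6% and 31.1% of all genes tested. Those 3 were Ackr1 (log2 fold change -6.30, SE 0.61), Ackr2 (-4.91, SE 0.60) and Ackr4 (-3.58, SE 0.91). Ackr1, which binds many inflammatory chemokines, stood at 1.28 to 9.07 normalized CPM in CD45- libraries and 0 to 0.293 in CD45+ libraries. Ackr2, a scavenger of inflammatory CC chemokines, stood at 1.14 to 8.24 and 0 to 0.688. Ackr4 stood at 0 to 1.12 RPKM in CD45- libraries and 0 to 0.0727 RPKM in CD45+ libraries. Ackr1, Ackr2 and Ackr4 thus passed the filter of 1 CPM through the CD45- libraries alone, so that their calls were partly set by the filter. Among those higher, at least Ccr9, at most 0.936 normalized CPM in CD45- libraries, passed through the CD45+ libraries alone. The counts of 9 higher and 3 lower were therefore partly set by the filter too. Of the 9 higher, Ccrl2 (2.99, SE 0.41), Cmklr1 (2.03, SE 0.30) and Xcr1 (3.26, SE 0.55) had the smallest adjusted p. Ccrl2 and Cmklr1 were listed with the chemokine receptors but are known for binding chemerin, which is not a chemokine. In all other comparisons of this fit 0 of the 12 were called, while 0 to 5 of them had an unadjusted p under 0.05.

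Of the 18 ligands, 12 were higher in CD45+ cells, 4 were lower and 2 were not called, beside the same 32.6% and 31.1% of all genes. Besides Cxcl12, the lower ones included Cxcl5, a ligand of Cxcr2, with 8.57 to 255 normalized CPM in CD45- libraries and 0.059 to 1.46 in CD45+ libraries (log2 fold change -5.99, SE 0.62), and Cx3cl1, the ligand of Cx3cr1, with 2.15 to 7.999 and 0.117 to 1.69 (-3.08, SE 0.32). Ppbp, another ligand of Cxcr2, was higher in CD45+ cells (3.59, SE 0.46). Of 20 genes of receptor signalling and desensitization, 15 were higher, 2 lower and 3 not called (all genes, 32.6% and 31.1%). Among them Adrbk1, a receptor kinase (1.51, SE 0.11), Arrb1, a beta-arrestin (1.56, SE 0.20), Pik3cg, a kinase downstream of G proteins (3.63, SE 0.49), and Elmo1, a partner of the Rac activator Dock2 (2.93, SE 0.40), were higher, and Rgs16, which shortens G protein signalling, was lower (-4.04, SE 0.46). All 8 pan-leukocyte and all 12 monocyte and macrophage genes were higher in CD45+ cells, and all 6 fibroblast genes tested were lower, with Pdpn, the seventh, listed at 0 counts in every library.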

How the data were processed

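RNA was measured in 22 libraries (SMARTer amplification, single-end reads). Per the study's methods the authors aligned reads to mouse GRCm38 (Ensembl release 76) with STAR 2.0.4b and counted uniquely aligned, unambiguous reads per gene with featureCounts (version given as 1.45 in the processing notes). The deposited files hold these counts, not normalized and without molecular identifiers, beside CPM and RPKM values computed by the authors; the deposited CPM and RPKM columns were used to check units and not tested. Amplified reads are not independent molecules, so floors cover counting error only.

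Counts were joined by Ensembl ID, 355 rRNA genes were left out, and genes above 1 CPM in at least 2 libraries (15018) were fitted with edgeR 4.0.16 in R 4.3.3 (TMM, quasi-likelihood, 1 mean for each of 8 groups, 22 libraries, 14 residual degrees of freedom). Genes were called where p, adjusted over all genes tested by the Benjamini-Hochberg method, was 0.05 or less; log2 fold changes have the standard error implied by the F statistic. RPKM was normalized CPM divided by the gene length in the files. The method recovered known changes in simulated counts. Those counts had a fixed spread and no outlying library, so they do not show how small a change could be called in these data. Alternatives were limma 3.58.1 with quality weights, DESeq2 1.42.0 (the adjusted p of every member was available), RLE factors, no filter, a replicate block, the compared populations alone, each library left out and both libraries that stand apart left out; each genotype alone was added after the data were seen. Gene likeness is Pearson's r of log2 CPM with a prior count of 2. The genes most like a receptor are the highest r among all other genes tested. Such maxima run high with few libraries, and no test was made of them. Named genes are the 9 receptors, at most 5 of each list by smallest adjusted p (with the other receptor of highest RPKM) and the 3 genes most like each receptor. Ackr4 and Ccr9 were named outside this rule after their values were seen. One listed gene is not reported here. Members and lists were chosen with earlier results of these data known.

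Replicate numbers were checked for pairing. Deviations of same-numbered libraries from their group means had a correlation above 0.1 in 4 of 15 wild type pairs and 6 of 15 Cdh2-cKO pairs, and those of differently numbered libraries in 5 of 30 and 1 of 30. In groups of 2 libraries the deviations mirror each other, so these pairs are not independent. The labels tie no number to an animal, and for that reason the numbers were not used to pair libraries in the main fit. Whether same-numbered libraries share an animal was not tested.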

Additional observations from a re-analysis of the deposited data

How the results depend on the processing

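In the CD45 contrast 8 receptors were called in edgeR with all libraries, and in all alternatives run except limma with quality weights (7) and each genotype alone (6 and 6). Replicate numbers were not taken to pair libraries, and 5 of 11 wild type and 7 of 11 Cdh2-cKO libraries correlated best with one of their own number. The replicate block left 8 receptors called in that contrast and 0 elsewhere, and turned Cxcr2 between double positive and CD45 single positive cells to 0.20. Genes called in TdT single positive against double negative cells went from 284 to 185 with the replicate block and in that population between genotypes from 1 to 0. The cause of the changes below was not tested.

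Genes called in the CD45 contrast were 9570, 5575 in wild type libraries alone, 3709 at a log2 fold change of 2 or more and 8871 to 9963 with 1 library left out. Between TdT single positive and double negative cells they were 718 by limma, 982 by DESeq2, 92 without the filter, 2 with these populations alone, 1509 without both libraries that stand apart (wild type CD45 single positive replicate 2 and double negative replicate 3), 0 and 1149 in wild type and Cdh2-cKO libraries alone, 39 at a log2 fold change of 2 or more, and 30 to 878 with 1 library left out; receptors called were 1 by DESeq2 and 3 in Cdh2-cKO libraries alone. Between double positive and CD45 single positive cells 6 genes were called by DESeq2 and 0 in wild type libraries alone. Between genotypes DESeq2 called 134 genes and 1 receptor in TdT single positive cells, 522 genes and 3 receptors in double negative cells, 26 genes in CD45 single positive cells, 1 gene in double positive cells, and 30 genes and 1 receptor in the genotype difference of the CD45 contrast. In TdT single positive cells limma and the population alone gave 0 genes and leaving out both libraries 68. With 1 library left out, genes called ranged from 0 to 89 in TdT single positive and 0 to 604 (receptors 0 to 2) in double negative cells, and 0 to 15 in the genotype difference; the highest were reached without wild type TdT single positive replicate 2, double negative replicate 1 and TdT single positive replicate 2.

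Directions turned for receptors that were not called. Cxcr6 in the CD45 contrast was -0.10 by limma, -0.18 without both libraries, -0.61 in Cdh2-cKO libraries alone and -0.082 to 1.40 with 1 library left out. Between double positive and CD45 single positive cells limma gave 1.13 for Ccr6, 0.84 for Cxcr2, 0.80 for Cxcr3, 0.73 for Cxcr6 and -0.083 for Ackr3, and leaving out both libraries gave 1.198, 0.28, 0.81, 0.77 and -0.10. Cdh2-cKO libraries alone gave -0.38 for Ccr2, 0.46 for Ccr6 and 0.24 for Cxcr2, and wild type libraries alone 0.15 for Ccr1 and -0.042 for Ackr3. With 1 library left out Ccr1 ranged from -0.30 to 0.031, Ccr6 from -1.42 to 1.203, Cxcr2 from -0.63 to 0.29, Cxcr3 from -1.42 to 0.82, Cxcr6 from -1.64 to 0.77 and Ackr3 from -0.23 to 0.24. Between TdT single positive and double negative cells wild type libraries alone gave -1.86 for Ccr1, -2.58 for Ccr2, -1.19 for Cx3cr1, -0.80 for Cxcr4 and 0.052 for Ackr3. Ccr6 was 0.67 by limma, 1.12 without both libraries and 2.44 in Cdh2-cKO libraries alone, which also gave 0.99 for Cxcr2 and 0.16 for Cxcr3. With 1 library left out Ccr1 ranged from -1.22 to 2.25, Ccr2 from -1.44 to 1.98, Ccr6 from -2.11 to 1.13, Cx3cr1 from -0.72 to 1.96 and Cxcr4 from -0.20 to 1.20. Between genotypes Cxcr6 in CD45 single positive cells was 0.13 by limma, 0.98 without both libraries and -4.15 to 0.96 with 1 library left out, Cxcr3 there was 0.36 without both libraries and -3.37 to 0.35, and Ackr3 there was -0.063 by limma and -0.18 to 0.76. Ackr3 in TdT single positive cells ranged from -0.86 to 0.28. Low counts of Cxcr2, Cxcr3 and Ccr6 in CD45- libraries limit what can be said of them there.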
